A study of Mus musculus with 4 samples.

Results

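MicroRNA-155 (miR-155) has many reported direct targets, and 39 of them were followed here in cells that mis-expressed it. Of these genes, 37 had a probe set annotated with their symbol alone, out of 19938 genes on the array, and each gene was read from its brightest such probe set, by the mean of all arrays. Ripk1 and Picalm had no such probe set and were not analysed here. The cells were RAW 264.7, a mouse macrophage-like line that forms bone-resorbing osteoclasts under RANKL, the osteoclast-inducing ligand, and M-CSF, a macrophage growth factor. They had been transfected with a control vector or with a vector expressing miR-155, and RNA was taken without stimulation or after 72 h of both cytokines. The series text gives 20 ng/ml, with no word on whether each cytokine was used at that dose, and it speaks of wild-type cells where the sample labels name a control vector. With 1 array for each of the 4 groups, differences between arrays could not be checked against replicates and carry no p-value of their own. The sources used here do not give the promoter of the vector, or whether the cells were a clone or a pool.

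A mature microRNA guides an Argonaute protein to messenger RNAs whose 3′ untranslated regions pair with its seed, the bases near its 5′ end. Pairing recruits factors that shorten the poly(A) tail and block translation, so a target can lose messenger RNA, protein or both, and an array sees only the first. In macrophages miR-155 is known as an inflammation-induced microRNA, and reported targets include brakes on cytokine signalling such as Socs1 and Inpp5d.

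The sequences are shown because the seed is what the reported targets are taken to share. They come from RefSeq (GRCm38.p6), and the mature arms were matched by name. In the mature arms the capitals mark the seed, bases 2 to 8. In the hairpin, which lies on the plus strand at chr16:84714140-84714204, the capitals mark the 5p arm and then the 3p arm.
miR-155-5p: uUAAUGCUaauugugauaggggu
miR-155-3p: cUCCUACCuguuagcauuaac
Mir155 hairpin: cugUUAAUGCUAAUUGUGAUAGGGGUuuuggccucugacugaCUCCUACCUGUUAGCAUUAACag
No other mature sequence among the 1738 in the mouse table had the 7-base seed of either arm, nor the same bases 2 to 7. A messenger RNA matched to the seed of the 5p arm along all 7 bases reads agcauua, and the 8-base form that adds an A opposite base 1 reads agcauuaa. Untranslated regions were not used here, so the members were not searched for these letters. For Mir155 itself, the probe set did not reach the floor defined next on any of the 4 arrays, with 3.72 and 3.61 in control cells and 3.58 and 3.73 in miR-155 cells. Mature microRNA is not measured by this array, and these values therefore do not check the vector.

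Levels are RMA log2 values, and each pair of values below gives the array without and then the array with the cytokines. The floor was 4.25, the 95th percentile over 1212 probe sets of olfactory and vomeronasal receptors, and 12728 genes had a mean above it. Of the 37 members, 35 had a mean above the floor and lay above it on all 4 arrays; the transcription factors Ets1 (4.03 and 4.08 with the control vector, 4.09 and 4.03 with miR-155) and Meis1 (3.82 and 3.75, then 3.71 and 3.80) lay below it on all 4. As a noise reference, 95% of the receptor probe sets differed by less than 0.37 (log2) between the unstimulated arrays, 0.47 between the stimulated arrays, 0.48 between the control arrays and 0.41 between the miR-155 arrays. These probe sets are dim, so this is no replicate error. A member was counted as higher or lower when it differed by at least 1.5-fold, or 0.58 (log2).

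Across genes above the floor, the array of stimulated control cells correlated least with the others, with a Pearson r of 0.898 to 0.930 against 0.980 to 0.988 for the pairs without it. The labelled cell states showed in their markers. All 7 macrophage markers were above the floor, and the cytokines came with levels at least 1.5-fold higher for all 7 osteoclast markers in control cells and for 6 of 7 in miR-155 cells. Summed on the linear scale, the osteoclast markers stood at 441 and 32386 in control cells and at 328 and 9984 in miR-155 cells, the macrophage markers at 29301 and 11716, then 28150 and 25012. The proliferation genes, 11 with a probe set, stood at 11759 and 2726, then 13006 and 11184. Of the other cell types, the B cell markers Cd79a and Ms4a1 and the granulocyte markers Mpo and Ly6g were below the floor on all 4 arrays, the granulocyte marker Elane was at 4.18 and 4.49, then 4.32 and 4.20, and Cd3e, Cd4 and Cd8a, of T cells, stayed between 3.62 and 4.91. The fibroblast marker Dcn stood at 3.48 and 5.04 in control cells and at 3.54 and 4.05 in miR-155 cells, while the other 3 fibroblast markers differed by less than 1.5-fold between any of these arrays. In bulk RNA, fewer cells of a type and less RNA per cell cannot be told apart. The macrophage and proliferation sums were lowest, and the osteoclast sum highest, on the stimulated control array, and their part in the values below that use that array was not tested. The comparison of the unstimulated arrays, and the response in miR-155 cells, do not use that array. Markers of the cell state differed between the unstimulated vectors as well: Ctsk (-2.45), Atp6v0d2 (-0.97) and Adgre1 (-0.91) were lower and Ocstamp (0.68) was higher in miR-155 cells, and their part in that comparison was not tested. On the unstimulated miR-155 array Ctsk, at 4.26, was about at the floor and Atp6v0d2, at 4.48, close to it.

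**Figure D1:**
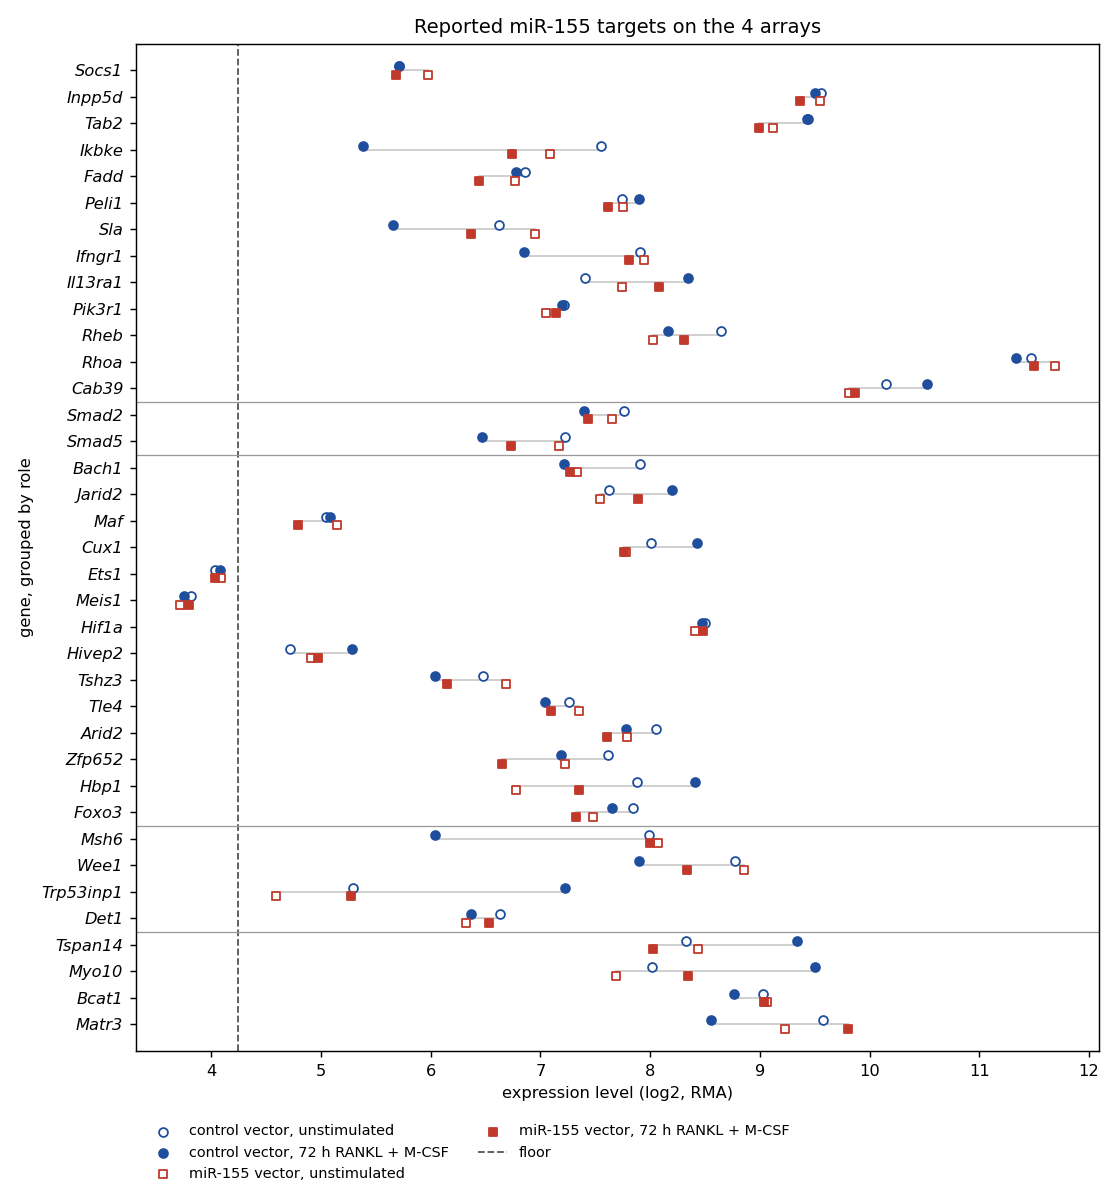
Expression level (log2, RMA) of the 37 reported miR-155 targets with a probe set, 1 row per gene and 1 point per array, control-vector arrays (blue circles) drawn slightly above miR-155-vector arrays (red squares). Open symbols are unstimulated, filled symbols are stimulated, the dashed line is the floor at 4.25, and horizontal lines separate the roles. Hbp1 and Trp53inp1 have their miR-155 points to the left of the control points of the same state, while for Ikbke and Msh6 the stimulated control array is the one that stands apart.

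Without stimulation, the few reported targets that passed 1.5-fold were all lower in miR-155 cells. Of the 35 members above the floor, 3 were lower, namely Hbp1, Trp53inp1 and Rheb, and none was higher. Over all 12728 genes, 3.21% were at least 1.5-fold lower and 1.15% higher. At 2-fold only Hbp1 was lower, 1 of 35 against 0.574% of all genes, and none was higher, against 0.0707%. The median of the members was -0.09 (log2), against -0.00 for all genes, and 21 of 35 members (60.0%) were below 0, against 50.6% of all genes. For 29 of 35 (82.9%) the difference stayed within the noise reference, as it did for 85.1% of all genes.

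With the cytokines the vector differences of the members were wider and went both ways. Of 35 members, 6 were lower in miR-155 cells (Trp53inp1, Tspan14, Myo10, Hbp1, Cux1 and Cab39) and 5 were higher (Msh6, Ikbke, Matr3, Ifngr1 and Sla). Over all genes, 14.0% were at least 1.5-fold lower and 12.9% higher, so both shares of the members, 17.1% and 14.3%, were near the background. At 2-fold, 4 members were lower (Trp53inp1, Tspan14, Myo10 and Hbp1), against 5.84% of all genes, and 3 higher (Msh6, Ikbke and Matr3), against 5.92%. The median was -0.05, against -0.02 for all genes, 19 members (54.3%) were below 0, against 52% of all genes, and 23 of 35 (65.7%) stayed within the noise reference, against 66.1% of all genes.

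**Figure D2:**
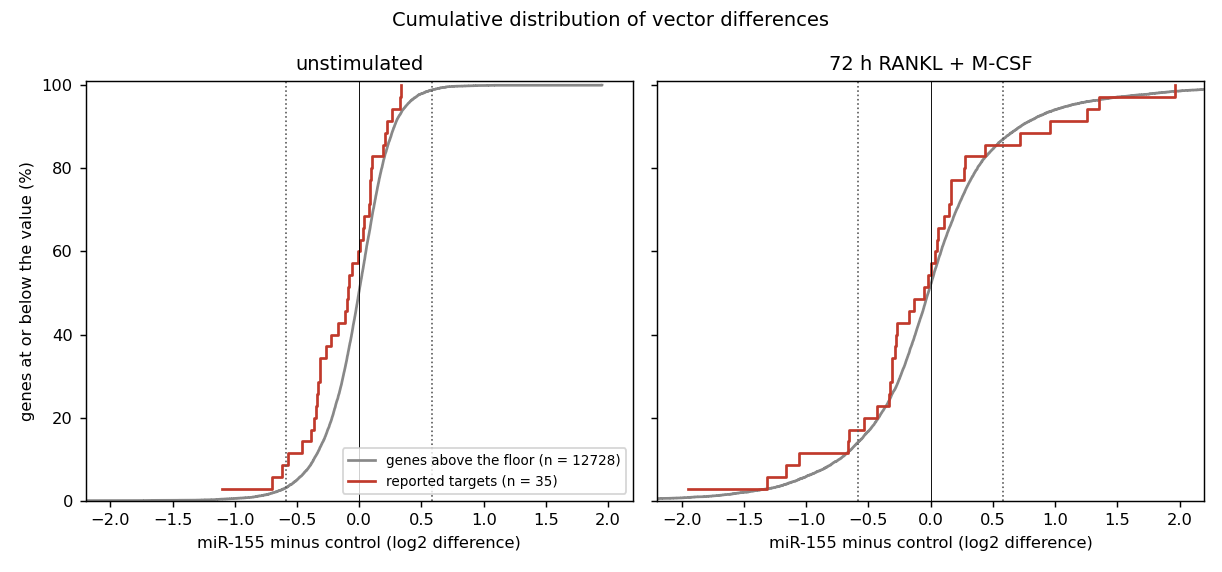
Cumulative share (%) of genes at or below a given log2 difference between the miR-155 and the control array, without stimulation (left) and after 72 h of RANKL and M-CSF (right), for the 35 reported targets above the floor (red) and all 12728 genes above it (grey); dotted lines mark 1.5-fold. Left of 0 the red curve runs to the left of the grey one in unstimulated cells, where the members' median is -0.09, and the curves cross in stimulated cells, where it is -0.05.

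The comparisons within each state share no array, so they can be set side by side. Both compare the same vectors, so agreement between the states is not a replicate of the vector difference. Other differences between the transfected cells were not tested. Hbp1 and Trp53inp1 were at least 1.5-fold lower in both states, 5.71% of 35 members against 1.30% of all genes, and no member was higher in both, against 0.487%. By sign alone, 13 of 35 members (37.1%) were lower in both states, against 28.1% of all genes, and 8 (22.9%) were higher in both, against 25.5%. The other 14 members (40.0%) differed in sign between the states, against 46.4% of all genes. Across all 4 arrays, 8 members (22.9%), Hbp1, Trp53inp1, Cab39, Cux1, Tab2, Foxo3, Fadd and Pik3r1, had both miR-155 arrays below both control arrays, against 17.3% of all genes, and 3 (8.57%), Msh6, Rhoa and Bcat1, had both above, against 13.9%. This count sets no size for the gap, and several gaps were small. The nearest miR-155 and control arrays stood at 5.27 and 5.29 for Trp53inp1, 6.77 and 6.78 for Fadd, and 7.14 and 7.19 for Pik3r1. Those above stood at 8.003 and 7.99 for Msh6, 11.50 and 11.47 for Rhoa, and 9.04 and 9.03 for Bcat1.

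Hbp1, an HMG-box transcriptional repressor that restrains cell cycle genes, differed between the vectors by almost the same amount in both states. It stood at 7.88 and 8.41 in control cells and at 6.78 and 7.35 in miR-155 cells. In each state the miR-155 array was the lower one. The difference was -1.10 (2.15-fold lower) without and -1.06 (2.08-fold lower) with the cytokines, and in the unstimulated comparison Hbp1 ranked 51 from the lowest of 12728 genes, in the stimulated one, where more genes differed, 652. Its response to the cytokines was nearly the same in both vectors, 0.53 in control and 0.57 in miR-155 cells.

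Trp53inp1, a p53-induced gene that takes part in stress-related cell death and autophagy, stood at 5.29 and 7.22 in control cells and at 4.59 and 5.27 in miR-155 cells. The stimulated miR-155 array was at about the level of the unstimulated control array. The vector difference was -0.70 (1.62-fold lower) without and -1.95 (3.86-fold lower) with the cytokines. With the cytokines it was 1.93 higher in control cells but 0.68 higher in miR-155 cells.

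Rheb, the GTPase that activates mTORC1, was at 8.65 and 8.16 in control cells and at 8.03 and 8.31 in miR-155 cells. It was lower by 1.54-fold (-0.62) in the unstimulated comparison, and its difference with the cytokines was 0.15, within the noise reference. Bach1, a heme-regulated repressor, had a similar pattern, at 7.90 and 7.21, then 7.33 and 7.27. Its unstimulated difference of -0.57 came just short of 1.5-fold, and the difference with the cytokines was 0.06.

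**Figure D3:**
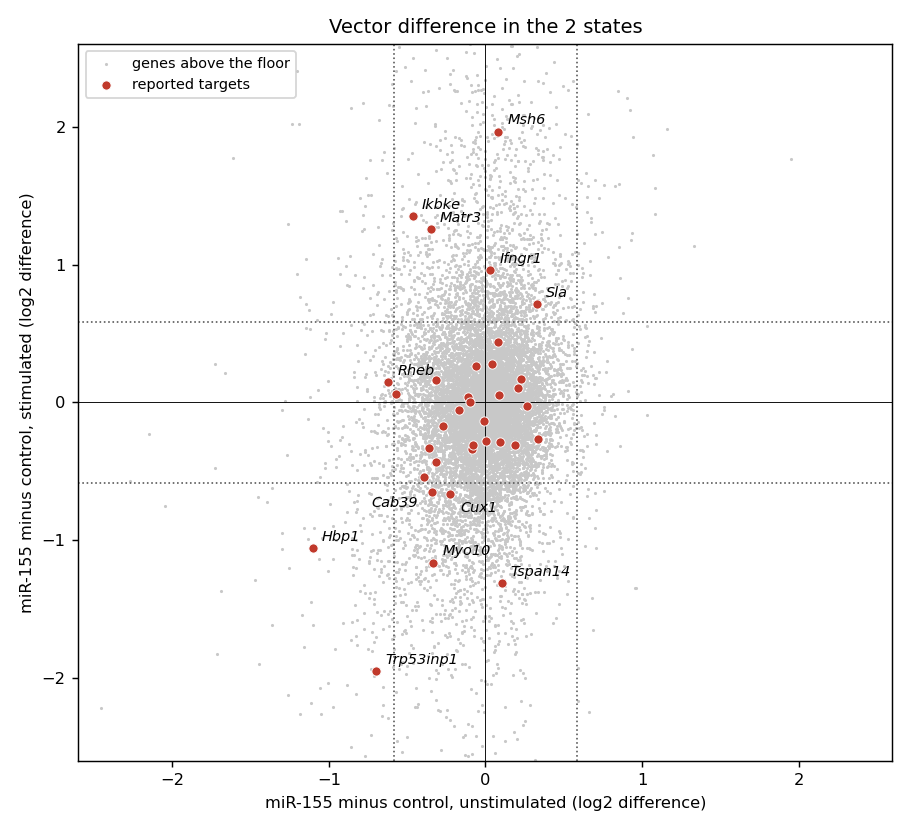
Log2 difference between the miR-155 and the control array without stimulation (x axis) and after 72 h of RANKL and M-CSF (y axis), for the 35 reported targets above the floor (red) and the other genes above it (grey); dotted lines mark 1.5-fold, members past it on either axis are named, and 94 genes lie outside the axes. Hbp1 (-1.10 and -1.06) and Trp53inp1 (-0.70 and -1.95) are the only members in the lower left corner, and no member is in the upper right one.

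Among the signalling members, the brakes on cytokine signalling Socs1 and Inpp5d showed little difference. Socs1, an inhibitor of JAK-STAT signalling, stood at 5.71 and 5.71 in control cells and at 5.98 and 5.68 in miR-155 cells. Inpp5d, which encodes the phosphatase SHIP1, stood at 9.56 and 9.51, then 9.55 and 9.37. Their vector differences were 0.27 and -0.03 for Socs1 and -0.01 and -0.14 for Inpp5d, all within the noise reference. The Src-like adaptor Sla, known from lymphocytes as a brake on antigen receptor signalling, was at 6.62 and 5.66 in control cells and at 6.95 and 6.37 in miR-155 cells, so it was higher in miR-155 cells by 0.33 without and 0.71 with the cytokines.

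Adaptors and kinases of innate signalling included 1 large difference. Ikbke, the kinase IKK-epsilon of the interferon pathway, stood at 7.55 and 5.39 in control cells and at 7.09 and 6.74 in miR-155 cells. Its difference was -0.46 without stimulation and 1.35 (2.56-fold higher in miR-155 cells) with it, and the stimulated control array was the low one. Tab2, the adaptor between TRAF6 and the kinase TAK1 and thus part of RANK signalling, stood at 9.44 and 9.43, then 9.12 and 8.99. It was lower in miR-155 cells in both states, with differences of -0.32 and -0.43, short of 1.5-fold and within the noise reference. The death receptor adaptor Fadd was at 6.86 and 6.78, then 6.77 and 6.44. The ubiquitin ligase Peli1, of Toll-like and interleukin 1 receptor signalling, was at 7.75 and 7.90, then 7.75 and 7.62. Neither differed past the noise reference between the vectors.

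The cytokine receptor chains went opposite ways with the cytokines in control cells. Ifngr1, the ligand-binding chain of the interferon gamma receptor, stood at 7.91 and 6.85 in control cells and at 7.94 and 7.81 in miR-155 cells, a vector difference of 0.03 and 0.96 (1.95-fold higher with the cytokines). Il13ra1, a chain of the interleukin 13 receptor, stood at 7.41 and 8.35, then 7.75 and 8.08. Its vector differences of 0.34 and -0.27 were within the noise reference, and its response was 0.94 in control and 0.33 in miR-155 cells.

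Of the remaining signalling members, Cab39, a scaffold of the kinase LKB1, was at 10.15 and 10.52 in control cells and at 9.81 and 9.87 in miR-155 cells. The differences were -0.34 and -0.65. The second probe set of Cab39 differed by -0.25 and -0.44, so only the probe set used passed 1.5-fold. The phosphoinositide 3-kinase subunit Pik3r1 was at 7.21 and 7.19, then 7.05 and 7.14, and the actin-regulating GTPase Rhoa at 11.47 and 11.34, then 11.69 and 11.50. Rhoa was 0.22 and 0.17 higher in miR-155 cells, within the noise reference, and its second probe set was higher by 0.30 and 0.10.

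The SMAD members, which carry TGF-beta (Smad2) and BMP (Smad5) signals to the nucleus, did not differ between the vectors past the noise reference. Smad2 stood at 7.76 and 7.40 in control cells and at 7.65 and 7.44 in miR-155 cells. Smad5 stood at 7.23 and 6.47, then 7.17 and 6.74, and was lower with the cytokines by 1.69-fold (-0.76) in control cells and by 1.35-fold (-0.43) in miR-155 cells.

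Among the 12 transcription and chromatin members above the floor, 1 was lower without stimulation (Hbp1) and 2 with it (Hbp1 and Cux1), and none was higher; over all genes 3.21% and 14.0% were lower and 1.15% and 12.9% higher. The homeobox factor Cux1 was at 8.01 and 8.43 in control cells and at 7.78 and 7.77 in miR-155 cells, differing by -0.23 and -0.67. Jarid2, a cofactor of the repressive complex PRC2, was at 7.62 and 8.20, then 7.54 and 7.89. Jarid2 differed by -0.08 and -0.31, within the noise reference. Zfp652, a zinc finger repressor, was at 7.61 and 7.19, then 7.22 and 6.65. The forkhead factor Foxo3 was at 7.84 and 7.65, then 7.48 and 7.32, and Arid2, a subunit of the PBAF remodelling complex, at 8.06 and 7.78, then 7.79 and 7.60. These 3 were lower in miR-155 cells in both states, with differences of -0.39 and -0.54 for Zfp652, -0.36 and -0.33 for Foxo3 and -0.27 and -0.17 for Arid2; the values of Zfp652 exceeded the noise reference in both states.

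The other transcription factors stayed within the noise reference between the vectors. The hypoxia factor Hif1a was at 8.50 and 8.48 in control cells and at 8.40 and 8.48 in miR-155 cells. The Groucho corepressor Tle4 was at 7.26 and 7.04, then 7.35 and 7.10, and the zinc finger factor Tshz3 at 6.48 and 6.04, then 6.69 and 6.15. Both were lower with the cytokines in each vector, short of 1.5-fold. The bZIP factor Maf was at 5.05 and 5.08, then 5.15 and 4.80, and the zinc finger factor Hivep2 at 4.72 and 5.28, then 4.91 and 4.97. Both lay close to the floor.

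Msh6, a subunit of the mismatch recognition complex, had the largest positive vector difference of the 35 members. It stood at 7.99 and 6.04 in control cells and at 8.07 and 8.003 in miR-155 cells, so the stimulated control array alone was low. The difference was 0.08 without and 1.97 (3.90-fold higher in miR-155 cells) with the cytokines. Wee1, the kinase that holds back entry into mitosis, was at 8.77 and 7.90, then 8.85 and 8.34, a difference of 0.08 and 0.44. Beside them, all 11 proliferation genes were at least 1.5-fold lower with the cytokines in control cells (median -2.05), and none was in miR-155 cells (median -0.23). Det1, a component of a cullin-based ubiquitin ligase, was at 6.63 and 6.36, then 6.32 and 6.53, and differed by -0.31 and 0.17.

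Of the membrane, cytoskeletal, metabolic and RNA-binding members, Myo10 was induced less in miR-155 cells, and Tspan14 and Matr3 had responses of opposite sign in the vectors. Myo10, the myosin of filopodia, was at 8.02 and 9.50 in control cells and at 7.69 and 8.34 in miR-155 cells, a vector difference of -0.33 and -1.16 (2.24-fold lower). Tspan14, a tetraspanin that escorts the protease ADAM10, was at 8.33 and 9.34, then 8.43 and 8.03, a difference of 0.10 and -1.31 (2.49-fold lower). The RNA-binding nuclear matrix protein Matr3 was at 9.58 and 8.55, then 9.23 and 9.81, a difference of -0.35 and 1.26 (2.39-fold higher). Bcat1, the cytosolic branched-chain aminotransferase, stayed between 8.76 and 9.07 on the 4 arrays, at 9.03 and 8.76, then 9.07 and 9.04.

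The cytokine response was smaller in size in miR-155 than in control cells for most members, as it was for most genes. In control cells 4 of 35 members were higher with the cytokines (Trp53inp1 1.93, Myo10 1.49, Tspan14 1.01 and Il13ra1 0.94), against 12.7% of all genes. Another 8 were lower (Ikbke -2.17, Msh6 -1.95, Ifngr1 -1.06, Matr3 -1.03, Sla -0.97, Wee1 -0.88, Smad5 -0.76 and Bach1 -0.69), 22.9% against 15.9% of all genes. In miR-155 cells only Trp53inp1 (0.68) and Myo10 (0.66) were higher, against 3.56% of all genes, and none was lower, against 3.83%. These 2 genes were thus higher in both vectors, against 2.43% of all genes, and no member was lower in both, against 1.69%. At 2-fold, 3 members were higher in control cells (Trp53inp1, Myo10 and Tspan14), against 5.98% of all genes, and 4 lower (Ikbke, Msh6, Ifngr1 and Matr3), against 7.35%; in miR-155 cells no member was 2-fold higher or lower, against 1.22% and 0.196% of all genes. The median response of the members was -0.13 in each vector, against -0.03 for all genes in each. The response was smaller in size in miR-155 cells for 23 of 35 members (65.7%), against 67.1% of all genes, and it had the same sign in both vectors for 26 (74.3%), against 58.6%.

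**Figure D4:**
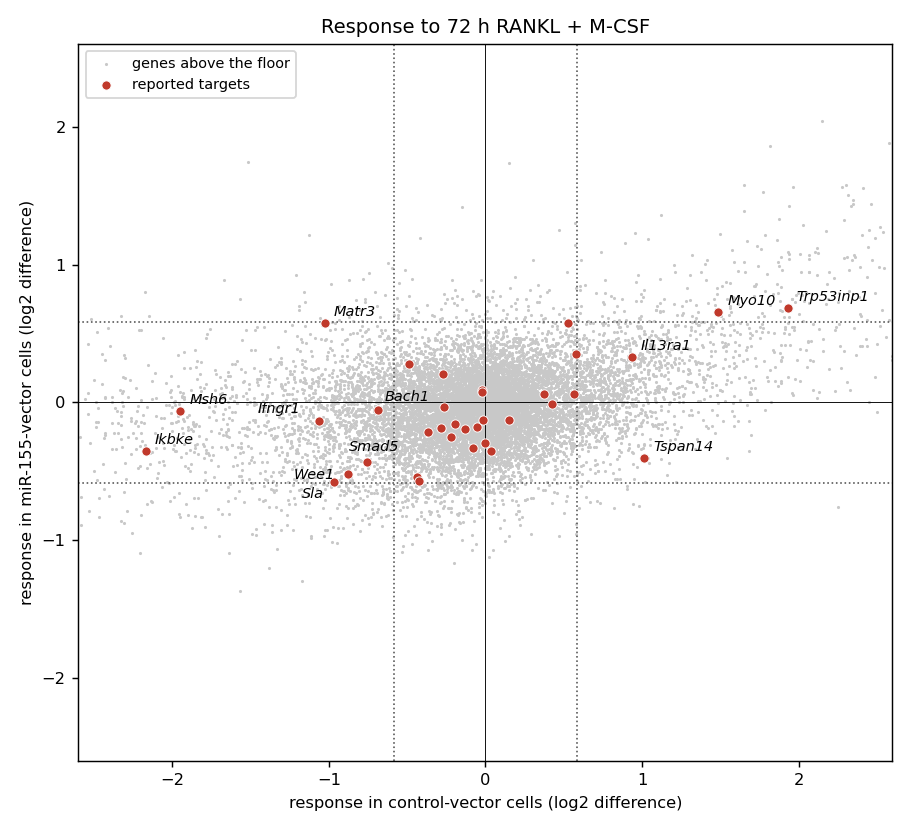
Log2 response to 72 h of RANKL and M-CSF in control-vector cells (x axis) and in miR-155-vector cells (y axis) for the 35 reported targets above the floor (red) and the other genes above it (grey); dotted lines mark 1.5-fold, members past it on either axis are named, and 209 genes lie outside the axes. The members spread from -2.17 (Ikbke) to 1.93 (Trp53inp1) along x and from -0.58 (Sla) to 0.68 (Trp53inp1) along y.

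The difference of the responses was at least 1.5-fold in 10 of 35 members. It was positive for Msh6 (1.88), Ikbke (1.82), Matr3 (1.60), Ifngr1 (0.93), Rheb (0.77) and Bach1 (0.63), against 15.0% of all genes, and negative for Tspan14 (-1.42), Trp53inp1 (-1.25), Myo10 (-0.83) and Il13ra1 (-0.61), against 14.1%. Past 2-fold, Msh6, Ikbke and Matr3 were positive, against 6.95% of all genes, and Tspan14 and Trp53inp1 negative, against 4.82%. Of these 10, Matr3, Tspan14 and Rheb had responses of opposite sign in the vectors. The values were -1.03 (control) and 0.58 (miR-155) for Matr3, 1.01 and -0.41 for Tspan14, and -0.49 and 0.28 for Rheb. None of them reached 1.5-fold in miR-155 cells, and Rheb did not in control cells. The response in control cells, the vector difference with the cytokines and the difference of the responses all hold the stimulated control array, so they are not independent of each other.

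An additive limma model over the 4 arrays gave no member or other gene an adjusted p under 0.05 for miR-155 or for stimulation. Its error is the disagreement between the vectors' responses, which eBayes moderates over all genes. An SE is thus not the disagreement of that gene alone. For miR-155, 143 of 12728 genes were higher and 339 lower at an unadjusted p under 0.05, and 2 of the 35 members were lower, Hbp1 (-1.08, SE 0.19) and Trp53inp1 (-1.32, SE 0.37), each lower in 2 of 2 states, with an adjusted p of 0.879 by limma for both. Without the filter on low values Zfp652 and Cab39 were also lower and Sla higher at an unadjusted limma p under 0.05. Each had an adjusted p of 0.944 by limma. In that setting 256 of 19938 genes were higher and 530 lower at the same unadjusted p. Zfp652, Cab39 and Sla had the same log2 differences as with the filter, with a smaller SE. For stimulation, 505 genes were higher and 446 lower at an unadjusted p under 0.05, among them 3 members higher (Myo10, Trp53inp1 and Hbp1) and 3 lower (Sla, Wee1 and Smad5), all 6 with an adjusted p of 0.646 by limma.

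Genes that are reported miR-155 targets but not among the 39 went both ways too. Of 13 listed, 12 had a probe set and 9 a mean above the floor. Mitf, a regulator of osteoclast genes, was lower without stimulation (-0.63) and none was higher, against 3.21% lower and 1.15% higher of all genes. With the cytokines the clock gene Arntl was higher in miR-155 cells (1.01), while Fos (-1.30), an AP-1 subunit needed for osteoclasts, and Spi1 (-1.05), which encodes PU.1, were lower. All 13 listed genes of the microRNA pathway were above the floor, and none differed by 1.5-fold between the unstimulated vectors. Their median there was -0.23, against -0.00 for all genes. With the cytokines 5 were lower in miR-155 cells, Ago4 (-1.45) and Ago2 (-1.43), which encode Argonaute proteins, Tnrc6c (-0.76), which encodes a GW182 partner of them, and the Dicer partners Tarbp2 (-0.65) and Prkra (-0.63). The other called genes were higher, Dgcr8 (1.20), of the nuclear processing complex, and the exporter gene Xpo5 (0.59). Over all genes 14.0% were lower and 12.9% higher in this comparison, which uses the stimulated control array. In control cells Ago2 was higher with the cytokines by 1.14 and Ago4 by 1.10, against 0.02 and 0.09 in miR-155 cells.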

How the data were processed

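Per the labels' protocols, RNA of the 4 cultures was purified with RNeasy, and 100 ng each was made into biotinylated cRNA for Affymetrix arrays of the Mouse 1.0ST design. The authors deposited 1 log2 value for each probe set and array. The submitters' processing notes name RMA and Partek; the sources used here give neither versions nor a genome build. RMA includes quantile normalization, which hides a change in total RNA per cell. Arrays give no read depth, and their number limits the precision. Of 35557 probe sets, GEO's platform annotation gave 21789 a single symbol, 1621 several and 12147 none; all 37 member gene IDs were in the RefSeq table (GRCm38.p6), with 0 symbols changed. Log2 differences were taken between arrays. limma 3.58.1 (R 4.3.3, lmFit, eBayes, Benjamini-Hochberg over all 12728 genes) fitted vector and stimulation as additive terms, with 1 residual degree of freedom. It was also run on simulated data with additive effects only. That run cannot show how the fit performs where the responses differ between the vectors. Python 3.11.15, numpy 2.4.6, pandas 2.3.3 and matplotlib 3.10.9 were used. All members were named, with full values; the other lists were named past 1.5-fold. Members and lists were chosen with earlier results of these data known. The floor was applied to the mean of the 4 arrays; alternatives were no filter, the highest value, the mean of a gene's probe sets, centring, renewed quantile normalization, a 2-fold threshold and an intensity trend in limma.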

Additional observations from a re-analysis of the deposited data

How the results depend on the processing

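No value of a member past 1.5-fold changed sign with no filter, with the filter on the highest value, with the mean of a gene's probe sets, with centred arrays or with renewed quantile normalization. Of 38 member values past 1.5-fold over the 5 comparisons, the mean of the probe sets lost 1 (Cab39 with the cytokines) and renewed quantile normalization lost 1 (Bach1, difference of the responses). Centring and renewed quantile normalization each gained 4 (Jarid2 and Hivep2 in the control response, Hbp1 and Matr3 in the miR-155 response), so that the count of members higher with the cytokines in miR-155 cells went from 2 to 4 and Matr3 passed 1.5-fold in opposite directions in the vectors. With a 2-fold threshold the counts were 1 lower for the unstimulated vectors (Hbp1), 3 higher for the stimulated vectors, 4 lower for the control response, 0 higher for the miR-155 response, and 3 higher and 2 lower for the difference of the responses. limma called 0 members in all 7 settings, with a lowest adjusted p for miR-155 of 0.877 to 0.944; at an unadjusted p under 0.05 the members for stimulation went from 3 higher and 3 lower to 5 and 5 without a filter and to 2 and 1 with the trend, and for miR-155 from 2 lower to 4 lower and 1 higher without a filter. Over all genes stimulation was called for 1 gene with centred arrays, 1 with renewed quantile normalization and 2 with an intensity trend. A spread between replicates is missing, so a value counted as moved when it shifted by more than the SD of the receptor probe sets, which none did. The labels number no replicates, so cultures could not be paired by number; the additive limma fit sets the vectors against each other within each state.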
